A study of Mus musculus with 24 samples.

Results

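The genes described here make and regulate airway mucus. They are the 10 genes Muc5b, Muc5ac, Clca1, Fcgbp, Tff2, Gp2, Itln1, Agr2, Spdef and Foxa3, taken by symbol from a count table of 26253 genes measured by RNA sequencing in mouse lung. All 10 were in the table and 9 passed the filter on low counts, which left 16153 genes, while Itln1 did not pass. Before exposure to filtered air or to ozone, a gas that oxidises the airway surface, mice had been fed either a control diet or one enriched in docosahexaenoic acid (DHA), a fish-oil fatty acid. The 4 groups, control-diet air, control-diet ozone, DHA-diet air and DHA-diet ozone, have 6 libraries each, 24 in all. Every library came from lung tissue. The sources used here do not give the genotype, strain, sex, age, ozone dose or times, nor which parts of the lung were taken. The study's stated subject is whether DHA protects the lung against inflammation after ozone. Nothing in the labels ties libraries to individual mice, and p-values therefore describe library-to-library spread, which may be technical.

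Airway mucus is a gel of the long, heavily glycosylated mucins MUC5B and MUC5AC, stored in granules of secretory cells and carried away by cilia. In mouse airways Muc5b is made at rest by club cells, whereas Muc5ac rises when secretory cells turn into goblet cells. That change is driven in mice by the type 2 cytokine interleukin 13 through STAT6 and the transcription factors Spdef and Foxa3. Clca1 and Fcgbp are secreted mucus proteins, Tff2 is a trefoil peptide of mucosal repair, and Agr2 is an endoplasmic reticulum protein needed to fold mucins.

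Library totals ran from 18053493 to 26225630 counts. A level is in counts-per-million (CPM), with library sizes scaled by TMM, a trimmed-mean scaling. Changes are log2 fold changes ± SE or folds from edgeR's quasi-likelihood test over all 24 libraries, and a call means a p under 0.05 after Benjamini-Hochberg adjustment over all 16153 genes. Scgb1a1, the club cell secretory protein, took 5.51 to 12.25% of all counts, and DHA-diet ozone library 1 held the lowest share. Control-diet air libraries 1 to 3 stood apart, with a mean of 6.12 to 6.18 log2 CPM over 46 ribosomal protein genes, against 6.49 to 6.55 in control-diet air libraries 4 to 6 and 6.24 to 6.51 in the other 18 libraries. DHA-diet ozone libraries 1 and 2 had the highest levels of Retnlg, a neutrophil transcript, at 14.8 and 20.01 CPM. Called results that rest on these libraries are given with and without them. Control-diet air libraries 5 and 6 had the highest ribosomal means of the 24 (6.507 and 6.553). A fit without control-diet air libraries 4 to 6 was not run, so which part of that group is unusual is not known. In bulk lung tissue, fewer goblet cells and less RNA per cell cannot be told apart.

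Promoters of called members show the DNA in front of genes that moved here. RefSeq tables of the GRCm38.p6 build held a promoter for 6 of the 10 genes, while the count table uses mm39. The 250 bases before the annotated start of Agr2, the member called for ozone averaged over the diets, and of Fcgbp, lower on the DHA diet, are on the plus strand at chr12:35992675-35992924 and chr7:28070986-28071235. Capitals mark TGTTT or its reverse complement, the core bound by forkhead factors such as Foxa3.
Agr2: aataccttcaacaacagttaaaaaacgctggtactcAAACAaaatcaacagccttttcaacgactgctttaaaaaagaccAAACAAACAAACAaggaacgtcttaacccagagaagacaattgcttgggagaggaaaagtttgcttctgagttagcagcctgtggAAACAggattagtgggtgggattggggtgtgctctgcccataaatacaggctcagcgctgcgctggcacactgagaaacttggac
Fcgbp: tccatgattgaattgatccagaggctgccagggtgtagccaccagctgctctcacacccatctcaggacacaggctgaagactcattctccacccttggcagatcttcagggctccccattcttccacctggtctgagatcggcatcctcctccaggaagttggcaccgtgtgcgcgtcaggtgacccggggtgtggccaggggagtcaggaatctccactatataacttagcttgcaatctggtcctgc
The core lay 5 times before Agr2, with 3 of the matches overlapping, and was not in the Fcgbp window. On either strand, 46.4% of 32544 promoter windows of this length held it. Longer motifs were also searched on both strands: TGTTTAC (in 3.17% of windows), TGTTTGC (4.31%), both of which contain the core, the STAT6 motif, TTC and GAA 4 bases apart (5.89%), and CCGGAT for Spdef (4.98%). None of these was in any of the 6 windows. TATAAA, in 12.3% of windows, lay 36 bases before the Foxa3 start and 32 before that of Gp2. Such a match is a description of letters and not of a bound site. The first bases after the window were found in a GENCODE M21 transcript of the gene for Agr2 and Gp2, but not for Fcgbp or Foxa3. The starts used for Fcgbp and Foxa3 are therefore less certain.

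Per kilobase of exon, Tff2 was the most abundant of the 10 and Muc5b the second. Over the 24 libraries Tff2 averaged 36.3 CPM per kilobase (15.2 to 50.1) and Muc5b 11.9 (7.04 to 19.7). Agr2 (4.73), Gp2 (2.62), Clca1 (2.35), Spdef (2.01) and Fcgbp (1.07) followed, and their ranges overlapped. Muc5ac was at 0.490 (0.308 to 0.786) CPM per kilobase, below Muc5b in every library. Foxa3 (0.388) and Itln1 (0.109) were the lowest.

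Across the comparisons, ozone calls among these genes are given beside the share of all genes, and the fitted diet differences went one way. On the control diet, 2 of the 9 tested members rose after ozone (Clca1 and Agr2) and 0 fell, where 16.8% of all genes tested were called, 8.93% higher and 7.87% lower. On the DHA diet 0 rose and 1 fell (Tff2), where 23.7% of all genes were called, 12.7% higher and 11% lower. Between the diets, the 9 fitted changes were all below 0 in air (median log2 fold change −0.33) and after ozone (−0.41), while 51.6% and 51.8% of all genes lay above 0 (medians 0.00 and 0.01). This was not particular to the mucus genes: all 8 ciliated cell markers and 7 of 8 club cell markers also lay below 0 in each exposure. Many of the 9 mucus genes varied together between libraries, so the 9 signs are not separate observations. Of 36 pairs, 17 passed the correlation test given below, none of them with Spdef or Foxa3. None of the 9 was called for diet in air (1.15% of all genes called, 0.724% higher and 0.427% lower) or after ozone (0% called). Over all genes after ozone, 2260 had an unadjusted p under 0.05, and DESeq2 and limma-voom called 80 and 19. In edgeR 1 member had an unadjusted p under 0.05 in air (Muc5b) and 4 after ozone (Clca1, Muc5ac, Fcgbp and Tff2). DESeq2 called 0 in air and 1 after ozone (Clca1), and limma-voom called 0 in each, where these tools called 583 of 15212 and 849 of 16153 genes in air. The share called in air also turned on single libraries. It was 186 genes in all, 49 when control-diet air library 1 was left out, 716 for library 6 of that group, 654 without DHA-diet ozone library 1 and 0 without control-diet air libraries 1 to 3. Averaged over air and ozone, 3 of 9 were lower on the DHA diet (Clca1, Muc5ac and Fcgbp) and 0 higher, where 7.06% of all genes were called, 3.19% higher and 3.87% lower. Without control-diet air libraries 1 to 3, a choice made after seeing the data, none of the 3 was called in edgeR. Over all genes the calls for diet averaged over exposures went from 1140 of 16153 to 10 of 16416 under the same omission, which also leaves 3 libraries in that group. In air the fitted diet differences of Muc5b (0.13), Muc5ac (0.00) and Agr2 (0.24) were then positive on the log2 scale.

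**Figure D1:**
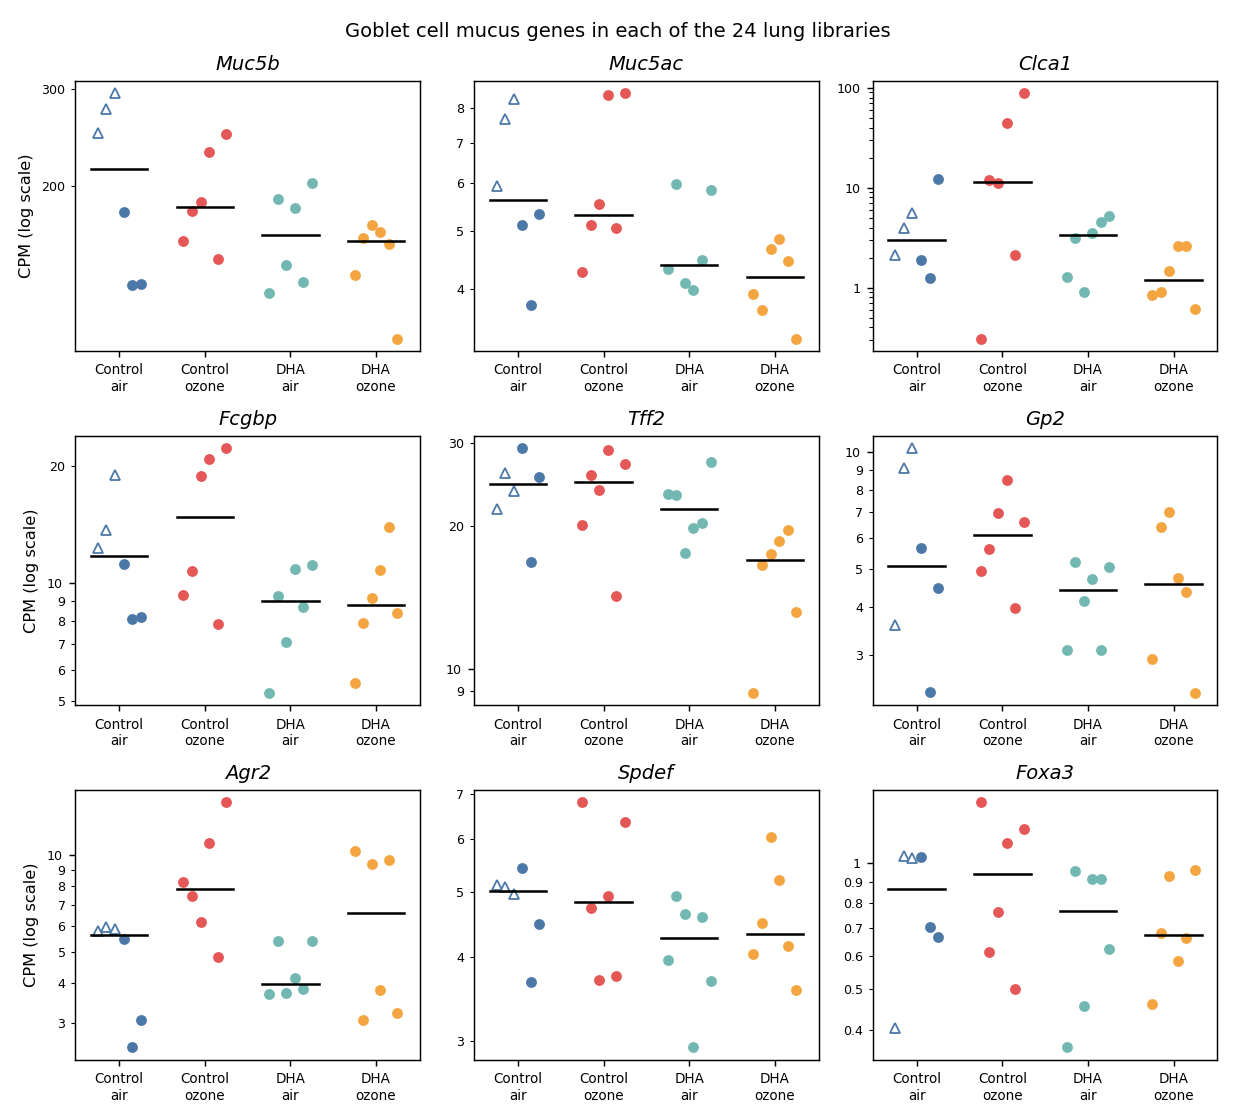
CPM (log axes) of the 9 tested genes in each library, with a panel per gene, a column per group and a black line at the group median; open triangles are control-diet air libraries 1 to 3. Clca1 spans 0.309 to 88.3 CPM within control-diet ozone, and the open triangles hold the 3 highest Muc5b levels.

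Muc5b, the gel-forming mucin of resting airways, had a lower fitted level on the DHA diet in each exposure, not called in edgeR with all libraries. In air the sign of this difference depended on control-diet air libraries 1 to 3. In the deposited mm39 coordinates it spans 141392809 to 141426823 of chromosome 7, 19844 bases beyond the end of Muc5ac. Its control-diet air libraries 1 to 6 held 249, 275, 295, 179, 132 and 132 CPM, and its control-diet ozone libraries 158, 179, 186, 230, 147 and 249. The DHA-diet air libraries held 127, 189, 144, 182, 134 and 202 CPM, and the DHA-diet ozone libraries 138, 160.3, 169.5, 165, 157 and 105. All 4 groups overlapped, and control-diet air libraries 1 to 3 were the 3 highest of the 24, with control-diet ozone library 6 next. Group means ± SD (n = 6) were 210.4 ± 72.2, 192 ± 40.1, 163 ± 31.8 and 149 ± 24.1 CPM in the same order. Averaged over exposures, the DHA-diet level was 0.776 of the control level (95% interval 0.647 to 0.931, edgeR adjusted p = 0.0749), and without control-diet air libraries 1 to 3 the log2 change was −0.11 (adjusted p = 0.627) against −0.37 with them. Without control-diet air library 5 or 6 alone the averaged difference was called (log2 fold change −0.42 in each, adjusted p = 0.0325 and 0.025). In air the DHA level was 0.773 of control (interval 0.598 to 1.00, edgeR adjusted p = 0.282). After ozone, where neither group holds those air libraries, it was 0.778 (0.601 to 1.01, adjusted p = 0.363). Ozone changed its fitted level by a factor of 0.91 on the control diet (interval 0.704 to 1.18) and 0.915 on the DHA diet (0.707 to 1.19), neither of them called.

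Muc5ac, the mucin that marks goblet cell change, was lower on the DHA diet when both exposures were averaged. It lies on chromosome 7 at 141342705 to 141372965. Control-diet air libraries 1 to 6 held 5.93, 7.66, 8.26, 5.11, 3.77 and 5.33 CPM, and control-diet ozone libraries 4.28, 5.11, 5.54, 8.41, 5.06 and 8.45. DHA-diet air libraries held 4.32, 5.97, 4.10, 3.99, 4.47 and 5.84 CPM, and DHA-diet ozone libraries 3.93, 3.70, 4.66, 4.84, 4.46 and 3.31. The 4 highest libraries were control-diet air 2 and 3 and control-diet ozone 4 and 6, and the groups overlapped. The DHA level was 0.734 of the control level (log2 fold change −0.45 ± 0.13, edgeR adjusted p = 0.0354). This call ended without any 1 of 11 libraries, which were control-diet air 1, 2 or 3, control-diet ozone 4 or 6, DHA-diet air 1, 3, 4 or 5 and DHA-diet ozone 1 or 6 (log2 fold change −0.39 to −0.50 over all 24 omissions, adjusted p 0.017 to 0.0713). Without control-diet air libraries 1 to 3 the log2 change was −0.28 (adjusted p = 0.286), without DHA-diet ozone libraries 1 and 2 it was −0.42 (0.0647), and with the replicate block −0.43 (0.0592). After ozone alone the DHA level was 0.678 of control (interval 0.520 to 0.885, adjusted p = 0.201), and ozone against air gave 1.02-fold on the control diet (0.785 to 1.32) and 0.870 on the DHA diet (0.665 to 1.14).

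Clca1, a protein secreted by goblet cells into mucus, had the widest spread between libraries of the 9 tested genes. It lies on chromosome 3 at 144710298 to 144738538. Control-diet air libraries 1 to 6 held 2.11, 3.95, 5.61, 1.91, 1.26 and 12.2 CPM. Control-diet ozone libraries held 0.309, 11.98, 11.1, 44.9, 2.12 and 88.3 CPM, a 285-fold span from 6 to 1692 counts. DHA-diet air libraries held 1.27, 3.11, 0.911, 3.56, 4.51 and 5.27 CPM, and DHA-diet ozone libraries 0.848, 0.910, 1.47, 2.59, 2.61 and 0.611. Libraries 4 and 6 of control-diet ozone were above every other library, library 1 was the lowest of all 24, and each pair of groups overlapped. On the control diet the fitted ozone change was 5.77-fold (log2 2.53 ± 0.71, edgeR adjusted p = 0.0147), and on the DHA diet 0.493-fold (interval 0.137 to 1.77, adjusted p = 0.435). The control-diet call ended without ozone library 6 (log2 1.63, adjusted p = 0.101), without air libraries 1 to 3 (2.32, adjusted p = 0.121) and in limma-voom (1.86, adjusted p = 0.241). A two-sided exact permutation test of mean log2 CPM gave a difference of 1.36 and an unadjusted p of 0.305.

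The diet difference of Clca1 was large after ozone and did not pass the test there. Mean levels ± SD (n = 6) were 26.5 ± 34.3 CPM on the control diet and 1.51 ± 0.892 on the DHA diet after ozone, and 4.50 ± 4.08 against 3.10 ± 1.73 in air. After ozone the fitted DHA level was 0.0579 of the control level (interval 0.0181 to 0.185, log2 fold change −4.11 ± 0.81, edgeR adjusted p = 0.0793). It was called in DESeq2 (adjusted p = 0.00212), and in edgeR without control-diet ozone library 1 (adjusted p = 0.0115) or 5 (0.0232), DHA-diet ozone library 2 (0.0393) or control-diet air library 6 (0.0458). Limma-voom gave −2.86 (adjusted p = 0.307), and the exact permutation test a difference of −2.66 with an unadjusted p of 0.0563. This comparison and the control-diet ozone comparison share the 6 control-diet ozone libraries. The test of whether the ozone change differed between the diets gave a log2 difference of −3.55 ± 1.12 (edgeR adjusted p = 0.658, unadjusted p = 0.00392). No member was called for that interaction, nor was any of the 16153 genes (0%), although 988 genes had an unadjusted p under 0.05 in edgeR, and DESeq2 and limma-voom called 5 and 2 genes, none of them a member. Averaged over exposures the DHA level of Clca1 was 0.198 of control (interval 0.0882 to 0.445, edgeR adjusted p = 0.0164). That call held in edgeR without any single library (adjusted p 0.00879 to 0.0298), but not in limma-voom (0.311) or without control-diet air libraries 1 to 3 (log2 −2.44, adjusted p = 0.0829).

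**Figure D2:**
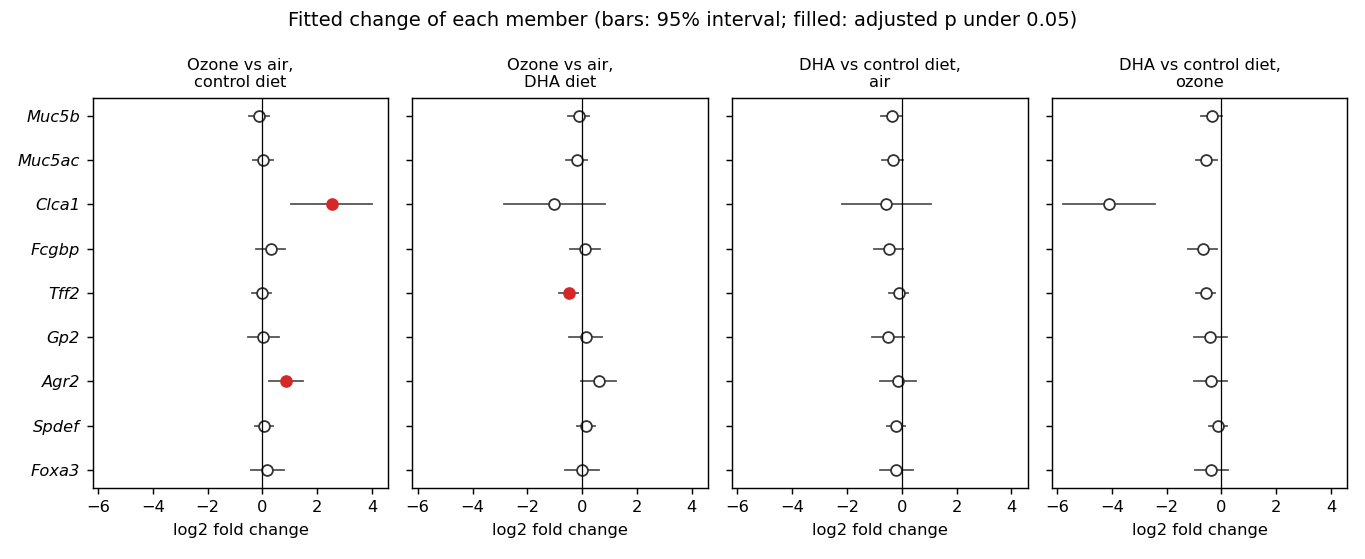
Fitted log2 fold change (points) and 95% interval (bars) of each gene for ozone against air on each diet and for DHA against control diet in each exposure; filled points have an adjusted p under 0.05. Clca1 and Agr2 are filled for ozone on the control diet, Tff2 for ozone on the DHA diet, and no gene is filled for diet.

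Fcgbp, a long secreted protein that binds to mucus, followed the pattern of Muc5ac. It lies on chromosome 7 at 27770661 to 27820290. Control-diet air libraries 1 to 6 held 12.3, 13.7, 18.96, 11.2, 8.10 and 8.21 CPM, and control-diet ozone libraries 9.33, 10.7, 18.8, 20.8, 7.84 and 22.2. DHA-diet air libraries held 5.23, 9.29, 7.06, 10.9, 8.67 and 11.2 CPM, and DHA-diet ozone libraries 5.55, 7.90, 9.18, 10.8, 13.96 and 8.37. The 4 libraries at or above 18.8 CPM were all on the control diet, and the remaining ones of the 2 diets overlapped. Averaged over exposures the DHA level was 0.669 of control (log2 fold change −0.58 ± 0.18, edgeR adjusted p = 0.0494). The call held without control-diet air library 5 or 6, control-diet ozone 1, 2 or 5, DHA-diet air 6 or DHA-diet ozone 5, and ended without any of the other 17 (adjusted p up to 0.0999). Without control-diet air libraries 1 to 3 the log2 change was −0.38 (adjusted p = 0.324), and without DHA-diet ozone libraries 1 and 2 −0.49 (0.106). It was also lost with no filter (0.0517), limma-voom (0.0813) and the replicate block (0.0576). Ozone gave 1.23-fold on the control diet (0.858 to 1.77) and 1.07-fold on the DHA diet (0.735 to 1.56), neither called.

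Tff2, a small trefoil peptide of mucosal repair, fell after ozone on the DHA diet. It lies on chromosome 17 at 31360036 to 31363257. DHA-diet air libraries 1 to 6 held 23.3, 23.3, 17.6, 19.8, 20.3 and 27.3 CPM, and DHA-diet ozone libraries 8.90, 16.6, 17.5, 18.6, 19.6 and 13.2. Library 1 of DHA-diet ozone was the lowest of all 24, and the groups overlapped between 17.6 and 19.6 CPM. The mean ± SD (n = 6) went from 21.9 ± 3.42 to 15.7 ± 4.02 CPM, 0.716 of the air level (log2 fold change −0.48 ± 0.17, edgeR adjusted p = 0.0363). On the control diet it was 23.8 ± 4.24 in air and 23.3 ± 5.38 after ozone (0.980 of air, interval 0.774 to 1.24), and the interaction was not called (log2 −0.45 ± 0.23, adjusted p = 0.839). The call on the DHA diet ended without DHA-diet ozone library 1 (−0.36, adjusted p = 0.0853) or 6 (−0.44, 0.0731), without DHA-diet air library 1 (−0.46, 0.0689), 2 (−0.46, 0.0657) or 6 (−0.41, 0.0885), without DHA-diet ozone libraries 1 and 2 together (−0.34, 0.136) and in limma-voom (−0.35, 0.135). DHA-diet ozone library 1 also had the lowest summed level of 8 club cell markers (67100 CPM, against 98250 to 131400 in the other 5 of its group), and the part of this in the Tff2 result was not tested. Between the diets, the DHA level of Tff2 was 0.921 of control in air (edgeR adjusted p = 0.768) and 0.673 after ozone (0.172). Averaged over exposures it was 0.787 (interval 0.665 to 0.932, edgeR adjusted p = 0.0693). None of these was called, but the averaged difference was called in 3 of the fits without a single library (adjusted p 0.0281 to 0.127 over all 24).

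Agr2, the chaperone of mucin folding, rose with ozone when the diets were averaged, by 1.66-fold (interval 1.22 to 2.25, log2 fold change 0.73 ± 0.21, edgeR adjusted p = 0.00853), where 35.4% of all genes were called (18.5% higher, 16.9% lower) and Agr2 was the 1 called member. It lies on chromosome 12 at 36042924 to 36054081. Control-diet air libraries 1 to 6 held 5.80, 5.97, 5.91, 5.47, 2.51 and 3.06 CPM, and control-diet ozone libraries 8.25, 7.45, 6.21, 10.9, 4.83 and 14.7. DHA-diet air libraries held 3.68, 5.39, 3.72, 4.13, 3.82 and 5.41 CPM, and DHA-diet ozone libraries 10.3, 3.07, 9.42, 3.80, 9.68 and 3.23. After ozone on the control diet 5 of 6 libraries lay above all 6 air libraries. On the DHA diet ozone libraries 1, 3 and 5 lay above every air library, libraries 2 and 6 below every one and library 4 within their range. The averaged call held without any single library (adjusted p 0.00335 to 0.021), in limma-voom (0.0366), in DESeq2 (0.00794) and without control-diet air libraries 1 to 3 (0.00684). On the control diet alone the rise was 1.81-fold (log2 0.85 ± 0.30, edgeR adjusted p = 0.0482), near the threshold. It was lost without any of the 12 air libraries or control-diet ozone library 1, 2, 4 or 6 (adjusted p up to 0.153), and with DESeq2 (0.0516), library totals (0.0636), no filter (0.0537), limma-voom (0.0989) or the replicate block (0.0772). On the DHA diet it was 1.52-fold (interval 0.983 to 2.35, adjusted p = 0.150).

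The transcription factors Spdef and Foxa3 passed the test in 0 of the 7 comparisons by edgeR, DESeq2 or limma-voom, and neither had an unadjusted p under 0.05 in any of them. Their lowest edgeR adjusted p were 0.377 and 0.439, for diet averaged over exposures. Spdef, an ETS factor (chromosome 17, 27933420 to 27949978), averaged 4.79 ± 0.628, 5.04 ± 1.30, 4.12 ± 0.743 and 4.59 ± 0.895 CPM (SD, n = 6) in control-diet air, control-diet ozone, DHA-diet air and DHA-diet ozone. Its libraries ran from 2.93 to 6.80 CPM and all 4 groups overlapped. Foxa3, a forkhead factor (chromosome 7, 18747208 to 18757465), averaged 0.811 ± 0.262, 0.931 ± 0.355, 0.704 ± 0.259 and 0.714 ± 0.196 CPM, from 8 to 27 counts a library, so its precision is limited by depth. In edgeR the intervals of the ozone change on the control diet were 0.833 to 1.32-fold for Spdef and 0.745 to 1.71-fold for Foxa3.

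Gp2 and Itln1 complete the set. Gp2, a glycoprotein on the surface and in the granules of secretory epithelium (chromosome 7, 119041760 to 119058496), held 3.59, 9.12, 10.3, 5.68, 2.41 and 4.48 CPM in control-diet air libraries 1 to 6. It ran from 3.98 to 8.50 CPM in control-diet ozone (median 6.14), from 3.09 to 5.22 in DHA-diet air (4.42) and from 2.40 to 7.02 in DHA-diet ozone (4.57). Its highest values were in control-diet air libraries 2 and 3, the groups overlapped, and the DHA level averaged over exposures was 0.731 of control (adjusted p = 0.170, edgeR). Itln1, intelectin, a lectin that binds microbial sugars (chromosome 1, 171345691 to 171362863), had 0 to 9 counts per library and was at 0 in 5 of the 24, so a change was not detectable at this depth.

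Library by library, 7 of the 9 tested genes had at least 1 partner they moved with inside groups, and Spdef and Foxa3 had none that passed the test. With group means removed, all 36 pairs of the 9 tested genes correlated above 0 across the 24 libraries (Pearson r 0.02 to 0.83, median 0.46), and 17 pairs passed an adjusted p under 0.05 by both Pearson and Spearman (100000 permutations within groups, adjusted over 36 pairs). Agr2 passed with Muc5b and Muc5ac alone. Muc5ac and Muc5b had the highest value (r = 0.825, permutation adjusted p = 0.0009, rho = 0.802, adjusted p = 0.00108, n = 24), and r = 0.779 without the 2 libraries farthest from the Muc5ac median. Muc5b with Gp2 (r = 0.787, rho = 0.782, permutation adjusted p = 0.00168 and 0.00108, r = 0.771 without 2 libraries) and Muc5b with Fcgbp (r = 0.762, rho = 0.769, adjusted p = 0.0009 and 0.00072, r = 0.737) came next. Clca1 went with Muc5ac (r = 0.707, rho = 0.670, permutation adjusted p = 0.00376 and 0.00763, r = 0.623) and Fcgbp (r = 0.670, rho = 0.713, adjusted p = 0.00663 and 0.00424, r = 0.628). It did not with Spdef (r = 0.0184, permutation adjusted p = 0.952, rho = 0.0357, adjusted p = 0.887, r = 0.195) or, past the test, with Agr2 (r = 0.346, adjusted p = 0.140, rho = 0.394, adjusted p = 0.130, r = 0.334). Without the 6 control-diet air libraries, 35 of the 36 pairs stayed above 0 over 18 libraries (median r 0.44), with 0.795 for Muc5ac and Muc5b. The same libraries, and so the same depths and RNA, underlie every pair.

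**Figure D3:**
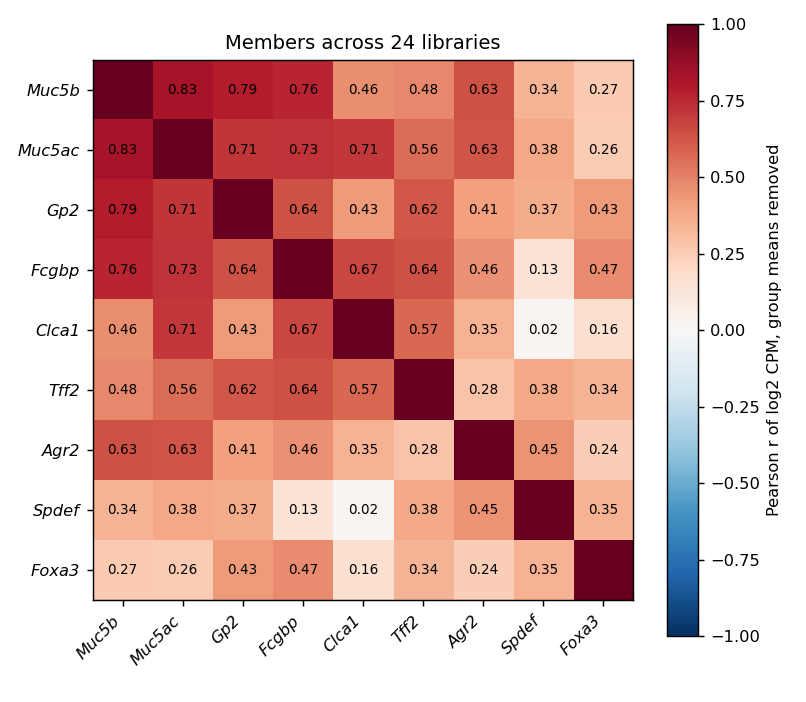
Pearson r of log2 CPM between each pair of the 9 genes over 24 libraries after group means were removed (colour from −1 to 1). The 5 highest values, up to 0.83, are among Muc5b, Muc5ac, Gp2 and Fcgbp, and Spdef and Foxa3 have lower values with most genes.

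**Figure D4:**
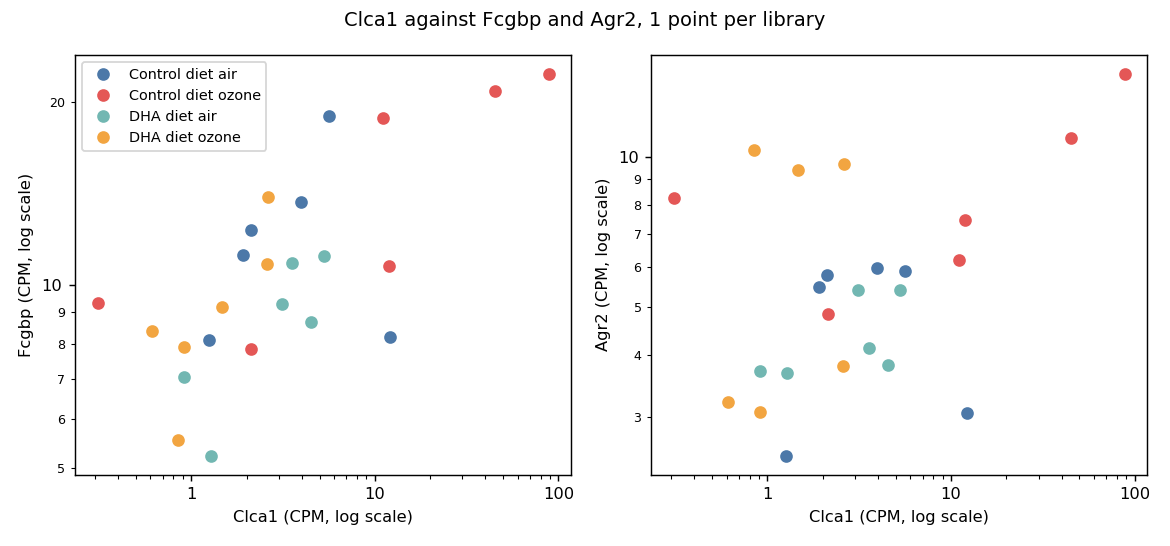
Clca1 against Fcgbp (left) and Agr2 (right), in CPM on log axes, with a point per library coloured by group. Control-diet ozone libraries 4 and 6 are the 2 points above 40 CPM of Clca1, and DHA-diet ozone libraries 1, 3 and 5 hold 9.42 to 10.3 CPM of Agr2 with at most 2.61 CPM of Clca1.

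The genes outside the set with the most similar pattern were sought among 14055 named genes of at least 1 CPM, by the same Pearson r over 24 libraries. These are the highest of many values and are given as a description. Fer1l6, a ferlin-family membrane protein, was among the first 5 for Muc5ac (r = 0.817), Fcgbp (0.855) and Clca1 (0.716), and like Clca1 it rose with ozone in control-diet libraries, by 1.55 ± 0.44 on the log2 scale (edgeR adjusted p = 0.0162). Bpifb1, a secreted protein of airway mucus and glands, was among the first 5 for Muc5b (0.884) and Gp2 (0.838), and Adra2a, an adrenergic receptor, for Fcgbp (0.816) and Tff2 (0.738). Dync2h1 was also among the first 5 for Muc5b (0.868) and Gp2 (0.772). Agr2 was closest to Reg3g (0.880), an antibacterial lectin, and Ltf (0.812), lactoferrin, followed by Stil (0.804), Ppp6r3 (0.794) and Chaf1a (0.791). The first 5 also held Lrba for Muc5b (0.862) and Ddx6 for Gp2 (0.772). Igf2r, the receptor that sorts lysosomal enzymes, led for Muc5b (0.887), Atl1 for Gp2 (0.843), Tll1 for Clca1 (0.724), Rmi2 for Spdef (0.735) and Serpine2 for Foxa3 (0.744).

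Other genes of the mucus pathway gave a mixed picture, in lists written from general knowledge with earlier results of these data known. Of 6 tested other mucins, 1 rose after ozone, Muc1, a membrane mucin of alveolar and airway epithelium. It went from 255 ± 23.4 to 339 ± 20.8 CPM on the control diet (1.33-fold, edgeR adjusted p = 0.000121) and from 263 ± 11.1 to 316 ± 34.7 on the DHA diet (1.20-fold, 0.00335). Of 20 tested genes of mucin folding and glycosylation, 1 rose on the control diet and 3 on the DHA diet, and 0 fell, where 8.93% and 12.7% of all genes rose. Creb3l1, a secretory pathway transcription factor, rose 1.27-fold on the DHA diet (adjusted p = 0.00196), from 22.1 ± 2.65 to 28.1 ± 2.61 CPM. Its ozone change on the control diet was not called. In air Creb3l1 was lower on the DHA diet (log2 fold change −0.39, edgeR adjusted p = 0.0136), where 0.427% of all genes were lower. That call ended without control-diet air libraries 1 to 3 (−0.32, 0.163). Both comparisons share the DHA-diet air libraries. C1galt1c1, the chaperone of the enzyme that extends mucin sugars, rose on each diet (1.13 and 1.15-fold, adjusted p = 0.0462 and 0.0136), though not without control-diet air libraries 1 to 3 on the control diet (adjusted p = 0.477) or DHA-diet ozone libraries 1 and 2 on the DHA diet (0.0662), and Galnt3, which starts sugar chains, on the DHA diet (1.25-fold, 0.00248). Averaged over exposures, Ern2, a stress sensor of mucus-making epithelium, was 0.545 of the control level on the DHA diet (adjusted p = 0.0187) and Creb3l1 0.862 (0.0215), while C1galt1c1 was 1.11-fold higher (0.034). None of the 3 was called without control-diet air libraries 1 to 3 (adjusted p = 0.159, 0.145 and 0.236), and C1galt1c1 was not without DHA-diet ozone libraries 1 and 2 (0.0801).

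Of 14 granule secretion genes, 3 rose and 1 fell after ozone on the control diet, and 4 rose and 1 fell on the DHA diet. Over all genes, 8.93% rose and 7.87% fell on the control diet, and 12.7% rose and 11% fell on the DHA diet. P2ry2, the nucleotide receptor that triggers mucin release, rose 1.37-fold and 1.25-fold (edgeR adjusted p = 0.00673 and 0.0405), and the granule GTPase Rab3d 1.16-fold and 1.15-fold (0.0131 and 0.0135). The P2ry2 calls ended without control-diet air libraries 1 to 3 (control diet, adjusted p = 0.0673) and without DHA-diet ozone libraries 1 and 2 (DHA diet, 0.135). Averaged over exposures Snap23, which helps granules fuse with the cell membrane, was 1.17-fold higher on the DHA diet (adjusted p = 0.00668, and 0.0784 without control-diet air libraries 1 to 3). Of 15 goblet fate regulators, 1 rose and 3 fell after ozone on the control diet, and 0 rose and 1 fell on the DHA diet. Stat6 fell on each diet, to 0.923 and 0.914 of air (edgeR adjusted p = 0.0104 and 0.00272). On the control diet Notch1 (0.854) and Jag2 (0.820) fell and Elf3 (1.18-fold) rose, Notch1 not without control-diet air libraries 1 to 3 (adjusted p = 0.215). Averaged over exposures Sox2 (0.790), Elf3 (0.849) and Foxa1 (0.864), all transcription factors of airway epithelium, were lower on the DHA diet, with adjusted p of 0.103, 0.122 and 0.207 without control-diet air libraries 1 to 3. In that averaged comparison 3.19% of all genes were higher and 3.87% lower. Type 2 cytokines were scarce: Il4, Il5 and Il13 each stayed under 0.6 CPM in every library, and 6 of the 14 cytokine and receptor genes did not pass the filter. Il33, the epithelial alarm cytokine, was the 1 that rose on each diet (1.83-fold and 1.57-fold, adjusted p = 0.000657 and 0.00437). On the DHA diet the receptor Il17rb fell to 0.489 of air (adjusted p = 0.015) and the epithelial cytokine Tslp to 0.712 (0.0456). The Tslp call ended without control-diet air libraries 1 to 3 (0.0544) or DHA-diet ozone libraries 1 and 2 (0.160).

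Of 10 tested genes that type 2 cytokines induce, 5 rose and 0 fell on the control diet, 5 rose and 1 fell (Postn) on the DHA diet, where 8.93% and 12.7% of all genes rose, and the other 5 and 4 were not called. Their median log2 fold changes were 0.71 and 0.50 against −0.01 for all genes in each. On the control diet 3 rose without control-diet air libraries 1 to 3 (not Arg1 or Ccl11), and without DHA-diet ozone libraries 1 and 2, 4 rose on the DHA diet (not Arg1). Slc26a4, the epithelial anion exchanger pendrin, rose from 4.67 ± 1.70 to 10.8 ± 3.23 CPM on the control diet (2.31-fold, edgeR adjusted p = 0.00105) and from 6.94 ± 1.96 to 13.3 ± 4.09 on the DHA diet (1.92-fold, 0.00347). Retnla, the macrophage and epithelial protein of type 2 responses, rose 12.5-fold and 8.72-fold (adjusted p = 3.24e-08 and 1.89e-07). Averaged over exposures Postn, a matrix protein, was 1.16-fold higher on the DHA diet (adjusted p = 0.0199, and 0.146 without control-diet air libraries 1 to 3). Of 7 tested genes listed as other epithelial peptides, 3 rose after ozone on the control diet (Lcn2, Pigr and Retnlg) and 4 on the DHA diet (these and Ltf). None fell, where 8.93% and 12.7% of all genes rose. On the control diet 2 of the 3 stayed called without control-diet air libraries 1 to 3. All 4 did on the DHA diet without DHA-diet ozone libraries 1 and 2. Retnlg is the neutrophil transcript named above. In bulk lung it cannot be told which cells made the Lcn2, Ltf and Retnlg RNA, so their rise need not be epithelial. Pigr, the receptor that carries antibodies into mucus, rose 1.44-fold and 1.60-fold (edgeR adjusted p = 0.00142 and 7.10e-05). Pigr was lower on the DHA diet in air (0.730 of control, adjusted p = 0.0364), and over both exposures Pigr (0.770, adjusted p = 0.00747) and Bpifb1 (0.691, 0.0253) were lower. The adjusted p were 0.221 in air, and 0.0771 and 0.260 over both exposures, without control-diet air libraries 1 to 3.

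Of 8 ciliated cell markers, 5 were lower on the DHA diet averaged over exposures (Rsph1, Ccdc39, Tekt1, Dnah5 and Dynlrb2, 0.748 to 0.837 of control) and 0 higher, where 3.87% of all genes were lower. Without control-diet air libraries 1 to 3 none of the 5 was called in edgeR (adjusted p 0.132 to 0.385), and without DHA-diet ozone libraries 1 and 2 all 5 were. The list had a median log2 fold change of −0.28 against −0.37 for the mucus genes and 0.01 for all genes. Their summed level was 1253 to 1614 CPM in control-diet air, 1266 to 1584 in control-diet ozone, 1125 to 1407 in DHA-diet air and 757 to 1364 in DHA-diet ozone. Of 8 club cell markers 7 lay below 0 for diet averaged over exposures (median −0.16), with summed levels of 103200 to 140200, 110800 to 158700, 102500 to 119800 and 67100 to 131400 CPM in the same order. All 8 mesothelial markers lay above 0 for diet averaged over exposures (median 0.16), and of 6 basal cell markers 1 did (median −0.25). None of either list was called there. Mesothelial sums were 696 to 1073, 578 to 1264, 736.5 to 1082 and 1064 to 1302 CPM in the same order. The part of these shifts in the diet differences of the mucus genes was not tested. Among markers of tissue that could be taken along, 8 cartilage genes summed to at most 2.72 CPM. The sum of 8 oesophagus, salivary and stomach genes was 5.45 to 10.6 CPM, most of it Amy1, an amylase gene, at 4.27 to 9.90 CPM. Amy1 was lower after ozone on each diet (0.739 and 0.718 of air, edgeR adjusted p = 0.0228 and 0.00951), not called on the control diet without control-diet air libraries 1 to 3 (0.0868). Krt4, a keratin of stratified epithelium, was 3.97-fold higher after ozone on the DHA diet (adjusted p = 0.00859), from 0.250 ± 0.160 to 1.00 ± 1.03 CPM, and not called without DHA-diet ozone libraries 1 and 2 (0.0594). The part of these genes in the results was not tested.

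**Figure D5:**
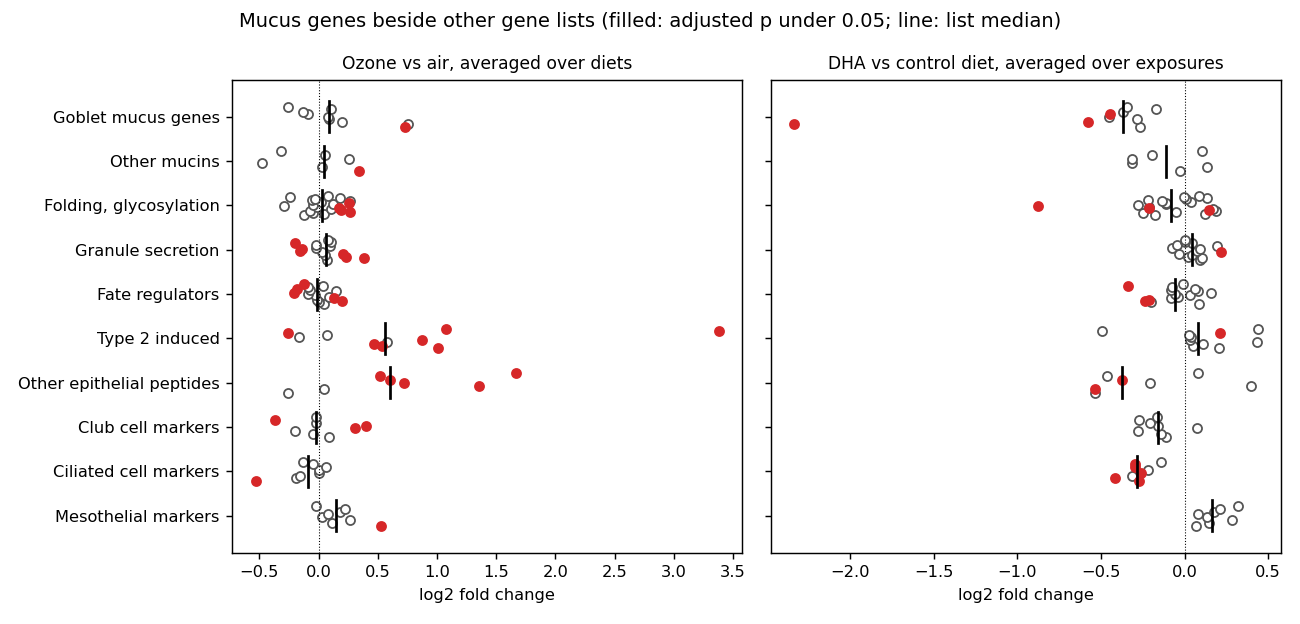
Fitted log2 fold change of each tested gene (points, filled at an adjusted p under 0.05) and the median (line) of the mucus genes and 9 other lists, for ozone averaged over diets (left) and DHA diet averaged over exposures (right). In the right panel the mucus genes have a median of −0.37 and the ciliated cell markers −0.28, with Clca1 farthest to the left at −2.34.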

How the data were processed

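RNA sequencing counts from 24 lung libraries were used, 6 in each of 4 groups taken from the sample titles. The authors deposited raw counts per gene. Per the submitters' processing notes, Partek, STAR and HTSeq were used with mm39, while the sources used here do not state versions, annotation or strand, so genes overlapping on opposite strands may share reads. Scgb1a1, the gene with the most counts, is given in rounded counts. Coordinates are as deposited.

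Genes were filtered by filterByExpr (minimum count 10, minimum total 15). After TMM scaling, edgeR 4.0.16 under R 4.3.3 was fitted with a mean per group over all 24 libraries. Averaged contrasts weight group means equally. Standard errors are log2 fold changes over the square root of F, and 95% intervals use a t distribution with 20 degrees of freedom, fewer than the test has, so an interval may reach 1 where p is just under 0.05. Correlations used log2 CPM with a prior count of 2. Exon lengths came from GENCODE M21, a GRCm38 annotation.

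The members and lists were chosen with earlier results of these data known. All members are named, as are some genes among the 5 most alike to a member. Called genes of the other lists are named only in part, and not strictly by adjusted p. For example, Chil3, which rose after ozone on each diet, and Hp, Scgb3a1 and Rab27a, each called for ozone, are not described. Scgb1a1, Retnlg, Il4, Il5, Il13 and the choice of libraries set apart were named after their values were seen. Alternatives were RLE scaling, library totals, no filter, 1 CPM in 6 libraries, DESeq2 1.42.0, limma-voom with quality weights (limma 3.58.1), a replicate block, the 2 groups alone, an adjusted p under 0.01, an exact permutation test and leaving out each library. The fits were tested on simulated data. Tables and figures used Python 3.11.15 with pandas 2.3.3, numpy 2.4.6, scipy 1.17.1 and matplotlib 3.10.9.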

Additional observations from a re-analysis of the deposited data

Results flagged for a closer look

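Of 40 checks (10 genes in 4 groups of 6 libraries), 1 library stood far from its group by Dixon's criterion, which chance flags in about 1 of 20 groups. Itln1 was at 0.398 CPM in DHA-diet ozone library 5, a gap of 0.709 of the range from the next library at 0.116 CPM. That level rests on 9 counts.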

How the results depend on the processing

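The ozone rise of Agr2 averaged over diets was called under each of the 34 alternatives it was run under, whereas the other called results ended under at least 1. For ozone on the control diet 2 members were called. The number was 1 with library totals, no filter, DESeq2, the replicate block, or without control-diet air libraries 1 to 3, and 0 with limma-voom or at an adjusted p under 0.01. Leaving out each library gave 0 to 2. For ozone on the DHA diet 1 was called, and 0 with limma-voom, at 0.01 or without DHA-diet ozone libraries 1 and 2, and 0 to 1 without single libraries. For diet after ozone 0 were called, 1 with DESeq2 and 0 to 1 without single libraries. For diet averaged over exposures 3 were called. The number was 1 with limma-voom (Muc5ac), the replicate block (Clca1) or without DHA-diet ozone libraries 1 and 2 (Clca1), 0 at 0.01 or without control-diet air libraries 1 to 3, and 1 to 5 without single libraries. For ozone averaged over diets 1 was called, 1 to 2 without single libraries. The replicate numbers do not pair the libraries: over 2000 genes, same-numbered libraries deviated from their group means with a mean correlation of −0.0052, and 2 of 24 lay closest to their own number. The block changed no other count of members by over 1.5 times, and over all genes it took the calls for diet in air from 186 to 85. Leaving out single libraries gave 49 to 716 such calls, and 0 to 144 for diet after ozone. The cause of these changes was not tested.

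Some uncalled log2 changes turned sign. Without control-diet air libraries 1 to 3 these were Muc5b (ozone, control diet, 0.37; diet in air, 0.13; interaction, −0.49; ozone averaged, 0.12), Muc5ac (diet in air, 0.0028; ozone averaged, 0.0824), Agr2 (diet in air, 0.24) and Gp2 (interaction, −0.40). With library totals they were Gp2 (−0.00567) and Muc5ac (−0.0169) for ozone on the control diet and Foxa3 (−0.00356) on the DHA diet. With limma-voom they were Spdef (ozone on the control diet −0.0689, diet after ozone 0.00715), Foxa3 (interaction, 0.0469) and Gp2 (interaction, −0.0362), and with the replicate block Gp2 (−0.0219) and Muc5b (−0.00333) for the interaction. Over fits without single libraries the signs turned for ozone on the control diet in Gp2 (−0.13 to 0.27), Muc5ac (−0.0938 to 0.14), Spdef (−0.0312 to 0.14) and Tff2 (−0.12 to 0.082), and on the DHA diet in Fcgbp (−0.0571 to 0.21), Foxa3 (−0.11 to 0.12) and Gp2 (−0.0275 to 0.26). They turned for the interaction in Gp2 (−0.14 to 0.25), Muc5b (−0.11 to 0.12) and Spdef (−0.012 to 0.18), for ozone averaged in Gp2 (−0.00073 to 0.20) and for diet in air in Clca1 (−0.77 to 0.029). Low counts limit Itln1 and Foxa3.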
